A study of Sus scrofa with 24 samples.

Results

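The circRNAs described here came from BTBD7, SLC45A4 and TMX1, host genes brought together because each gave rise to one of the steepest postnatal falls in the Meishan pig spleen. A circRNA was assigned to a gene where both back-splice ends met exon ends of that gene on the same strand within 1 base of the RefSeq annotation of Sscrofa11.1. By this rule 3 of the 3000 circRNAs in the deposited table were members, 1 per gene: circRNA_34381 of BTBD7, circRNA_25535 of SLC45A4 and circRNA_02977 of TMX1. No other circRNA of these genes is listed among the 3000, so isoforms of a gene could not be compared. Spleens of 24 healthy Meishan pigs, a Chinese indigenous breed, were sequenced after removal of ribosomal RNA, with 3 pigs at each of 8 ages: 1, 7, 14, 21, 28 and 35 days (1d to 35d) and the later 120 and 180 days (120d, 180d). Each library came from 1 pig, so stages were compared between different animals, without treatment or genetic change and on 1 standard diet. The table gives the number of reads across each back-splice junction, and its library totals ran from 16273 to 87867.

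CircRNAs are closed loops made when the end of an exon is spliced backwards onto the start of the same or an earlier exon, and without free ends they outlast most linear transcripts. BTBD7 encodes a BTB domain protein known from mouse embryos for driving cleft formation and branching in the salivary gland and lung. SLC45A4 belongs to a family of membrane transporters thought to carry sugars together with protons. TMX1 encodes a thioredoxin-like enzyme anchored in the membrane of the endoplasmic reticulum, where it acts on the disulfide bonds of other membrane proteins. The spleen filters blood and houses lymphocytes, and around birth it also makes red blood cells in many mammals.

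The back-splice junctions define these molecules, and reads across them are what was counted. The 25 bases before the junction are in lower case and the 25 bases after it in capitals, 5′ to 3′ on the strand of the gene, from the RefSeq sequence of Sscrofa11.1. The BTBD7 junction joins the end of exon 3 to the start of exon 2 (minus strand, chr7:114673750-114675741). The SLC45A4 junction joins exon 2 to itself (plus strand, chr4:2484106-2484734), and that of TMX1 joins the end of exon 7 to the start of exon 3 (plus strand, chr1:180939110-180943732).
circRNA_34381: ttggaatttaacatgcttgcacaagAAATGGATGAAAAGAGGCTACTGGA
circRNA_25535: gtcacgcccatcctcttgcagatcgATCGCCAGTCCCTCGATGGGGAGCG
circRNA_02977: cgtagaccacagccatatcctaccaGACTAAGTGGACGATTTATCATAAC

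In each gene the intron ended in AG before the circle and began with GT after it. The study used GT-AG signals to detect circRNAs, and members had to end at annotated exon ends, so this was set by the method. Each of these 25-base exon ends occurred 1 time in the assembled chromosomes on either strand, so no exact copy of an exon end was found.

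By annotation the circles differed in size and in the part of the messenger RNA they held. Only junction reads were counted, so the inside of each circle was taken as all annotated exons between its ends. Skipped exons or retained introns would not be seen, and lengths, GC content and coding parts below rest on this. BTBD7 circRNA_34381 spanned exons 2 and 3 of XM_013989219.2 with 1268 nt, longer than most of the 2844 circRNAs with an annotated exon chain (95.2nd percentile, median 429.5 nt). SLC45A4 circRNA_25535 was exon 2 of XM_013996449.2 alone with 629 nt, and 4.01% of the 2844 were made of 1 exon. TMX1 circRNA_02977 spanned exons 3 to 7 of XM_001928249.4 with 390 nt. GC content was 41.9% for BTBD7, 54.4% for SLC45A4 and 40.8% for TMX1, against a median of 43.3% over the table.

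Both BTBD7 and SLC45A4 circles began at exon 2, as did 32.9% of the 2844, and both held the annotated start codon of the protein. It lay at base 107 of the BTBD7 circle and at base 389 of the SLC45A4 circle, counted from the back-splice acceptor. The start codon is in capitals with 12 bases on each side.
BTBD7 start: tgactgaagaaaATGggtgctaatgca
SLC45A4 start: attttggtggtgATGaaaatggctccg

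The BTBD7 circle held 1162 coding bases, 34.4% of the coding sequence, and 106 bases of the 5′ non-coding part. The SLC45A4 circle held 241 coding bases (10.4%) and 388 non-coding ones. By its annotated exons the TMX1 circle was coding throughout, with 390 bases that touch codons 90 to 220 of 278, or 46.6% of the coding sequence. Its length is a multiple of the codon length, and the frame of the protein met no stop codon in 3 turns of the circle. Read from the start codon around the circle, the frame stopped after 420 codons in BTBD7 and after 120 in SLC45A4. Nothing measured here bears on translation.

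The thioredoxin active site of TMX1, a pair of cysteines with 2 residues between them, is encoded by codons 56 to 59 in exon 2 (chr1:180937332-180937343), outside the circle. It is shown because it places the circle downstream of the catalytic motif, with the cysteine codons in capitals.
TMX1 active site: TGTcctgctTGT

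**Figure D1:**
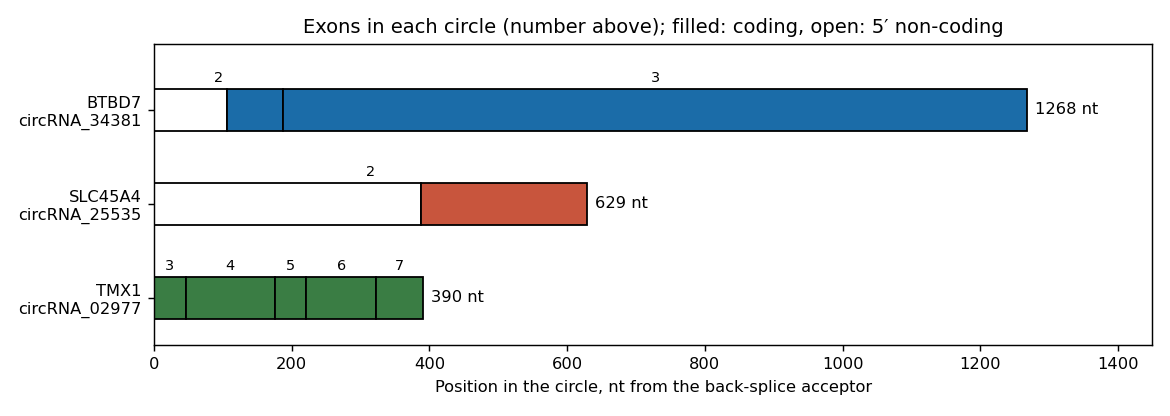
Annotated exons between the ends of the 3 circles, drawn to scale in nt from the back-splice acceptor (x axis). Exon numbers are above, coding parts filled and 5′ non-coding parts open. The circles of BTBD7 (1268 nt) and SLC45A4 (629 nt) begin with non-coding bases of exon 2, and that of TMX1 (390 nt) is coding throughout.

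Flanking introns set the 3 apart as well. The intron before the BTBD7 circle had 30582 bases and the one after it 26861, against medians of 8036 and 6742 over the table. The SLC45A4 circle lay between introns of 11801 and 26175 bases, and the TMX1 circle between shorter ones of 1675 and 3506 bases. Inverted copies in such introns can pair and bring exon ends together, so the longest exact inverted match was sought within 2000 bases on each side of each circle. It was 34 bases long for BTBD7 (94.4th percentile, median 17), 18 for TMX1 and 12 for SLC45A4. The BTBD7 match is shown as read on the minus strand in the upstream intron (chr7:114676888-114676921), 1146 bases before the circle. Its inverted copy lay 393 bases after the circle (chr7:114673323-114673356).
BTBD7 inverted match: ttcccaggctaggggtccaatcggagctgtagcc

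This is a match of letters and was not tested as a cause of circle formation.

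The genes were chosen by their falls against 1d at 28d or later, known from earlier fits of the same table, and these falls are given as a description with no test. Normalized counts were scaled by TMM, a trimmed mean of log ratios between libraries, and set a circRNA against the other circRNAs of its library. Reads per 100 M clean reads, which set it against all reads of the library, are given beside them because back-splice reads ran from 151 to 864 per M clean reads over the libraries. The files list no count of 1, so a 0 may stand for 0 or 1 read. Fewer cells of a type and less of the RNA per cell cannot be told apart in such bulk libraries.

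For BTBD7 circRNA_34381 the 1d libraries held 13, 22 and 11 reads, the 7d libraries 15, 5 and 7, the 14d libraries 8, 8 and 8 and the 21d libraries 17, 17 and 34. The 28d libraries held 6, 16 and 0 reads, the 35d libraries 10, 10 and 17, the 120d libraries 9, 11 and 9 and the 180d libraries 0, 3 and 0. The course was not a steady decline, since the 3 libraries of 21d lay above those of 14d, and the late drop was that of 180d, where the only reads came from replicate 2. The normalized 1d mean was 26.2 ± 9.83, the 7d mean 14.1 ± 6.91, the 14d mean 9.24 ± 0.873 and the 21d mean 19.2 ± 5.34 (SD over the 3 pigs of a stage). The 28d mean was 6.60 ± 7.06, the 35d mean 10.2 ± 2.82, the 120d mean 4.99 ± 1.20 and the 180d mean 0.719 ± 1.24. Ordered by mean, the stages ran 1d, 21d, 7d, 35d, 14d, 28d, 120d and 180d, and the libraries of neighbours in this order overlapped except for 120d and 180d.

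For SLC45A4 circRNA_25535 the 1d libraries held 14, 20 and 10 reads, the 7d libraries 25, 28 and 32, the 14d libraries 12, 4 and 15 and the 21d libraries 8, 12 and 23. The 28d libraries held 7, 9 and 8 reads, the 35d libraries 5, 10 and 5, the 120d libraries 12, 8 and 10 and the 180d libraries 5, 0 and 0. The 3 libraries of 7d lay above every other library of the series once scaled, and at 180d the only reads came from replicate 1. The normalized 1d mean was 25.3 ± 9.20, the 7d mean 46.3 ± 8.33, the 14d mean 12.3 ± 7.46 and the 21d mean 11.9 ± 4.52. The 28d mean was 8.26 ± 1.74, the 35d mean 5.41 ± 1.69, the 120d mean 5.04 ± 0.534 and the 180d mean 1.78 ± 3.08. After 7d each stage mean was below the one before it, although the libraries of successive stages overlapped from 14d on.

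For TMX1 circRNA_02977 the 1d libraries held 17, 21 and 9 reads, the 7d libraries 25, 19 and 23, the 14d libraries 9, 18 and 7 and the 21d libraries 36, 11 and 13. The 28d libraries held 0, 12 and 6 reads, the 35d libraries 8, 10 and 5, the 120d libraries 8, 12 and 19 and the 180d libraries 4, 3 and 6. Replicate 1 of 21d, with 37.6 normalized counts, stood apart from the others of its stage, with 9.54 and 9.61, at the level of the 7d libraries. The normalized 1d mean was 27.3 ± 11.9, the 7d mean 36.0 ± 1.18, the 14d mean 12.7 ± 5.24 and the 21d mean 18.9 ± 16.2. The 28d mean was 6.05 ± 5.44, the 35d mean 6.49 ± 2.53, the 120d mean 6.64 ± 2.73 and the 180d mean 3.64 ± 1.29. The order by mean was 7d, 1d, 21d, 14d, 120d, 35d, 28d and 180d, and the libraries of neighbours after 1d overlapped, those of 28d, 35d and 120d included.

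**Figure D2:**
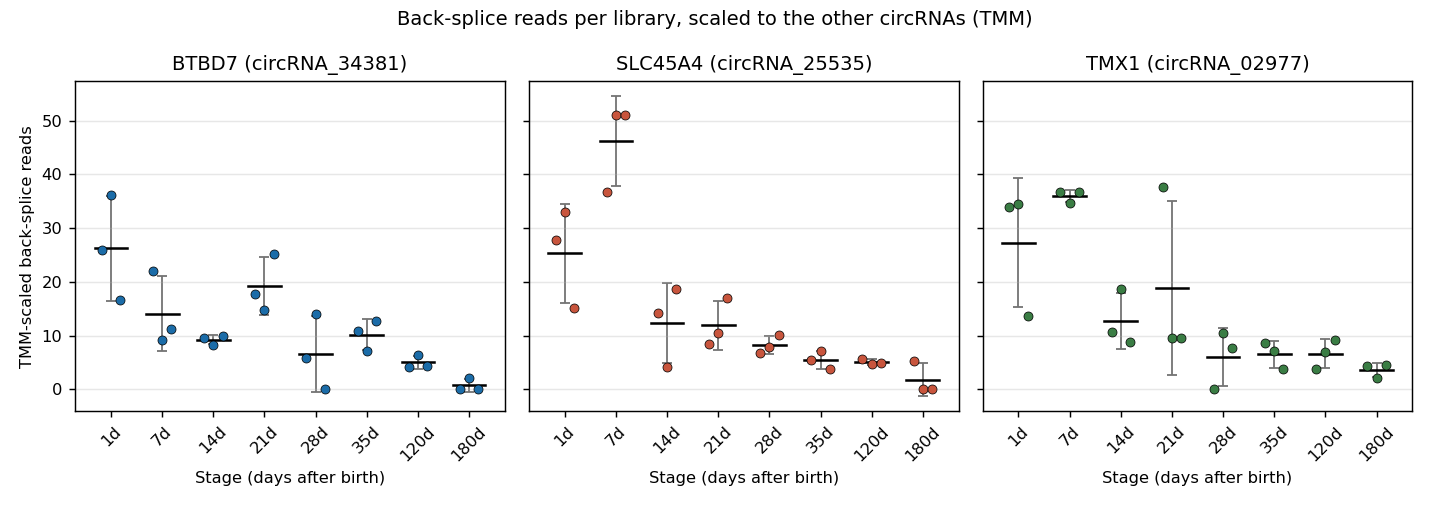
TMM-scaled back-splice reads (y axis) against age in days (x axis), 1 panel per circRNA. Each point is 1 pig, the line marks the stage mean and the bar its SD (n = 3). The 7d libraries of SLC45A4 average 46.3, the highest stage mean of the 3 circRNAs, and BTBD7 averages 0.719 at 180d, the lowest.

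At 7d BTBD7 was the lowest of the 3 circRNAs within each library. There all 3 libraries had more SLC45A4 than BTBD7 reads and more TMX1 than BTBD7 reads, a comparison within a library in which depth cancels. At 21d and at 35d 0 of 3 libraries had more SLC45A4 than BTBD7 reads, with 10 reads of each in 35d replicate 2. It was 2 of 3 libraries at 14d, 28d and 120d and 1 of 3 at 1d and 180d, so the order of the 2 did not change steadily with age. Against 1d, SLC45A4 was higher at 7d with 36.6 to 51.1 normalized counts at 7d and 15.1 to 32.9 at 1d (log2 fold change 0.88, standard error 0.46). TMX1 had 34.6 to 36.7 at 7d and 13.6 to 34.6 at 1d (0.42, standard error 0.50), where the lowest 7d library was 34.64 and the highest 1d library 34.57. BTBD7 had 9.12 to 22.0 at 7d and 16.6 to 36.2 at 1d (-0.86, standard error 0.54). Without overlap and higher at 7d were thus 2 of the 3, and 6.83% of all circRNAs. Per clean read the 7d libraries of SLC45A4 lay above those of 1d, whereas those of TMX1 overlapped with them. On that scale the share of all circRNAs without overlap was not computed.

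Contrasts among 7d, 14d and 21d were the ones open to a test, because the falls by which the genes were known were those of 28d and later stages against 1d. The choice of these contrasts was still made with earlier results of the same data known. The two-sided quasi-likelihood test of edgeR was run over all 3000 circRNAs, with p-values adjusted by Benjamini-Hochberg over all of them. A circRNA was called at an adjusted p under 0.05 and a log2 fold change of 1 or more in size. SLC45A4 circRNA_25535 fell to 11.9 ± 4.52 normalized counts at 21d, against 46.3 ± 8.33 at 7d (SD, n = 3 pigs each; log2 fold change -1.91, standard error 0.46, adjusted p = 0.0276 from edgeR). The libraries did not overlap, with 8.35, 10.4 and 17.0 at 21d and 36.6, 51.0 and 51.1 at 7d. It was 1 of 2 circRNAs called lower at 21d than at 7d (0.0667% of 3000). The number called lower was 7 with DESeq2's Wald test, 5 without 21d replicate 1, 1 without 7d replicate 1 and 0 with clean reads as depth or without any one of 7d replicates 2 and 3 and 21d replicates 2 and 3. The other, named after its value was seen, was circRNA_36761 of the clathrin adaptor gene PICALM, with 28.2 ± 7.44 at 21d and 64.7 ± 8.97 at 7d.

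The SLC45A4 call did not hold everywhere. With clean reads as the depth the log2 fold change was -1.04 (edgeR, adjusted p = 0.151), and it was not called. The libraries had 7.01 to 20.1 reads per 100 M clean reads at 21d and 21.9 to 31.1 at 7d. The share of all circRNAs without overlap was not computed on this scale, so nothing is read from that gap. The call was also lost without 7d replicate 2 (edgeR, adjusted p = 0.117) or 3 (0.162) and without 21d replicate 1 (0.0733), 2 (0.133) or 3 (0.0974). The log2 fold change stayed between -2.28 and -1.73 in the 6 fits that left out 1 library.

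TMX1 circRNA_02977 had 18.9 ± 16.2 normalized counts at 21d and 36.0 ± 1.18 at 7d (log2 fold change -0.97, standard error 0.49, adjusted p = 0.427), and was not called. Without 21d replicate 1 it came to -1.90 (adjusted p = 0.0712). BTBD7 circRNA_34381 had 19.2 ± 5.34 at 21d and 14.1 ± 6.91 at 7d (0.43, standard error 0.52, adjusted p = 0.821). Of the 3 circRNAs, 1 of 3 had no overlap and lay lower at 21d than at 7d, against 5.23% of all circRNAs.

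The contrast of 14d with 7d shares its 7d libraries with the one above. SLC45A4 had 12.3 ± 7.46 normalized counts at 14d and 46.3 ± 8.33 at 7d (log2 fold change -1.92, standard error 0.48, adjusted p = 0.0513), and it just missed the threshold. It passed with DESeq2's Wald test (-2.05, adjusted p = 0.0149) and among libraries with a listed share of valid bases of at least 0.96 (-1.90, adjusted p = 0.0360). It was not called by edgeR with DESeq2 size factors (adjusted p = 0.0651), table totals (0.0709), filterByExpr (0.0690) or a replicate block (0.0759). Nor was it called with clean reads as depth (-1.47, adjusted p = 0.132) or without any 1 library (0.0647 to 0.217). TMX1 had 12.7 ± 5.24 at 14d and 36.0 ± 1.18 at 7d (-1.48, standard error 0.52, adjusted p = 0.240), and BTBD7 had 9.24 ± 0.873 at 14d and 14.1 ± 6.91 at 7d (-0.63, standard error 0.58, adjusted p = 0.785). The libraries of SLC45A4 and TMX1 did not overlap, which held for 2 of 3 members and for 5.87% of all circRNAs. By edgeR 0 of 3000 circRNAs were called lower at 14d (0%), and 0 in either direction, with 319 at an unadjusted p under 0.05 and 17 called by DESeq2.

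Between 21d and 14d the 3 circRNAs were not called, nor was any other circRNA called lower (0%), with 0 called in either direction by edgeR and by DESeq2 and 118 at an unadjusted p under 0.05. BTBD7 had 17.7, 14.7 and 25.1 normalized counts at 21d and 9.46, 8.27 and 9.97 at 14d (log2 fold change 1.06, standard error 0.53, adjusted p = 0.999 from edgeR). These do not overlap, which held upwards for 6.4% of all circRNAs. SLC45A4 had a log2 fold change of 0.01 (standard error 0.49) and TMX1 one of 0.51 (standard error 0.53).

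For each of the 3 the value farthest below 1d was that of 180d. Over 28d, 35d, 120d and 180d in turn, BTBD7 had log2 fold changes against 1d of -1.86, -1.36, -2.37 and -4.82, with standard errors of 0.55, 0.52, 0.53 and 0.74. SLC45A4 had -1.61, -2.19, -2.28 and -4.04 at the same stages, with standard errors of 0.52, 0.54, 0.51 and 0.66. TMX1 had -2.14, -2.07, -2.01 and -2.88, with standard errors of 0.59, 0.57, 0.53 and 0.62. The TMX1 values of 28d, 35d and 120d thus lay within 1 standard error of each other, and BTBD7 and SLC45A4 were farther below 1d at 180d than at 120d. The 28d values of BTBD7 and TMX1 moved with single libraries. That of BTBD7 was -2.99 without 28d replicate 2 and -1.37 without 28d replicate 3. That of TMX1 was -2.95 without 28d replicate 2 and -1.53 without 28d replicate 1. SLC45A4 had a 180d value of -3.39 without 180d replicate 2 and -3.42 without 180d replicate 3.

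Among the 1000 circRNAs with a mean of at least 10 normalized counts, the 180d fall of BTBD7 ranked 2nd in size, that of SLC45A4 4th and that of TMX1 11th. At 28d TMX1 ranked 2nd, and at 35d SLC45A4 ranked 4th and TMX1 5th. Past both thresholds and lower than at 1d were 1 of the 3 in the 28d contrast (0.3% of all circRNAs), 2 in the 35d contrast (0.267%), 3 in the 120d contrast (1.47%) and 3 in the 180d contrast (3.4%). The 180d libraries of each member lay below all libraries of 1d, which held for 11.5% of all circRNAs. Since these contrasts chose the members, nothing is read from these counts.

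Few reads stand behind the 180d values. BTBD7 had 3 reads in 1 library of 180d, against 46 reads at 1d, which after scaling gives a level 31.7-fold lower with an exact 95% interval of 10.2 to 159 for counting error alone. With the 0 counts of 180d taken as 1 read each, which was added after seeing the data, the ratio was 19.0-fold (7.58 to 61.3). SLC45A4 had 5 reads at 180d and 44 at 1d, 18.2-fold lower (7.22 to 58.7), or 13.0-fold (5.80 to 34.2) with its 0 counts taken as 1. TMX1 had 13 reads at 180d, in all 3 libraries, and 47 at 1d, 7.47-fold lower (3.97 to 15.04). The intervals leave out the spread between pigs.

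Between 180d and 120d, BTBD7 alone of the 3 had normalized counts that did not overlap, with 0, 2.16 and 0 normalized counts at 180d and 4.24, 6.38 and 4.36 at 120d. The same held for 9.97% of all circRNAs, and as 180d entered the choice of the members this is a description. Per 100 M clean reads none of the 3 overlapped, with at most 2.76 at 180d and at least 7.81 at 120d for BTBD7. The same limits were 4.87 and 7.14 for SLC45A4 and 5.60 and 6.94 for TMX1. The share of all circRNAs without overlap was not computed on this scale. Back-splice reads of the whole table were also fewer per M clean reads at 180d (360 to 532) than at 120d (634 to 864). The ratio of scaled reads was 5.99-fold lower at 180d for BTBD7 (exact 95% interval 1.86 to 30.7), 3.72-fold for SLC45A4 (1.43 to 12.3) and 1.86-fold for TMX1 (0.971 to 3.79). With 0 counts taken as 1 read, a setting chosen after seeing the data, these became 3.59-fold (1.37 to 11.9) for BTBD7 and 2.65-fold (1.14 to 7.16) for SLC45A4.

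Of the 3 libraries of 180d, 2 had a share of valid bases under 0.96, as had 2 of 35d, 2 of 120d and 1 of 21d. Left with replicate 1 alone at 180d, a lone library assumed to vary like the other stages, SLC45A4 had a log2 fold change against 1d of -2.24, and TMX1 -2.66. BTBD7 is listed at 0 in that library, so its fitted value of -7.57 depends on the prior count and is no bound. The part of these library differences in the falls was not tested.

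The depth used moved the 120d values most. Per 100 M clean reads the 1d mean of BTBD7 was 13.8 ± 4.90, the 21d mean 20.1 ± 8.39, the 35d mean 11.7 ± 3.69, the 120d mean 8.87 ± 1.01 and the 180d mean 0.919 ± 1.59. For SLC45A4 the 1d mean was 13.2 ± 4.26, the 7d mean 26.3 ± 4.59, the 35d mean 6.30 ± 2.64, the 120d mean 9.18 ± 1.78 and the 180d mean 1.62 ± 2.81. For TMX1 the 1d mean was 14.1 ± 5.35, the 35d mean 7.27 ± 2.37, the 120d mean 12.2 ± 6.16 and the 180d mean 4.08 ± 1.43. On this scale the circRNAs at 120d were nearer to 1d than on the TMM scale, and 180d was the lowest stage for each of them.

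With clean reads as the depth the log2 fold changes at 120d against 1d were -0.63 for BTBD7, -0.52 for SLC45A4 and -0.22 for TMX1. At 180d they were -3.72, -2.97 and -1.76. Those at 21d turned positive for BTBD7 (0.54) and TMX1 (0.33). For comparison, the 120d median over the 3000 circRNAs was 1.99 with clean reads and 0.26 with TMM, and the 180d median was 1.27 with clean reads and 0.20 with TMM. Per clean read the 120d libraries of SLC45A4 and TMX1 overlapped with those of 1d, while the 180d libraries of each member lay below every library of 1d. The share of all circRNAs for which this held was not computed per clean read, and nothing is read from it.

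**Figure D3:**
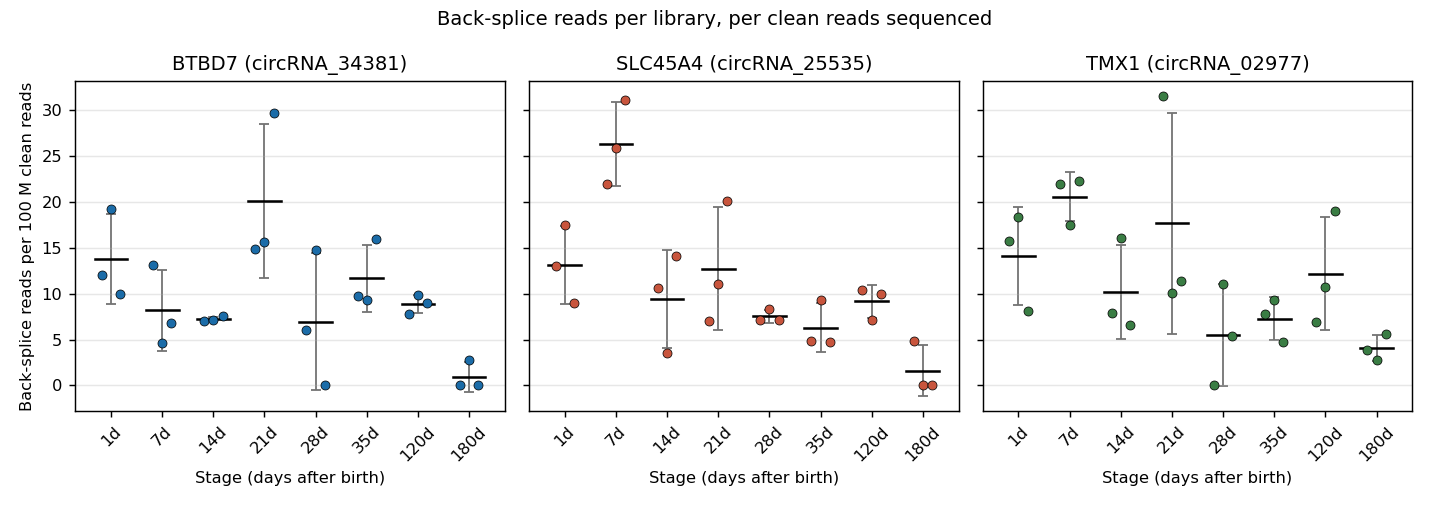
Back-splice reads per 100 M clean reads (y axis) against age in days (x axis), 1 panel per circRNA. Each point is 1 pig, the line marks the stage mean and the bar its SD (n = 3). BTBD7 averages 20.1 at 21d and 13.8 at 1d on this scale, and 180d is the lowest stage in each panel.

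**Figure D4:**
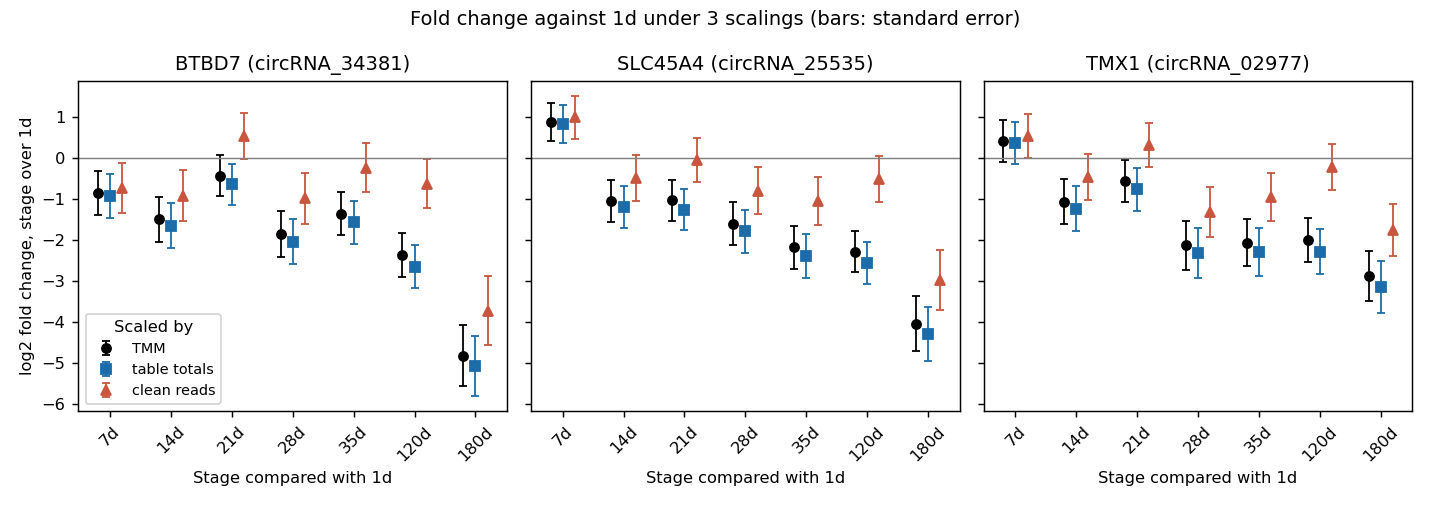
Log2 fold change of each later stage over 1d (y axis) with counts scaled by TMM, by the totals of the table or by clean reads; bars are standard errors of the fit. At 180d the TMM values are -4.82, -4.04 and -2.88 for BTBD7, SLC45A4 and TMX1, and at 120d the clean-read values are -0.63, -0.52 and -0.22.

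Over the 24 libraries the log2 CPM (prior count 2) of TMX1 and SLC45A4 had a Pearson r of 0.720, that of TMX1 and BTBD7 0.589 and that of SLC45A4 and BTBD7 0.617. These describe circRNAs that were chosen for the same falls and share libraries and depth.

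The circRNAs of other genes with the most similar profiles were sought among those with a mean of at least 10 normalized counts. For each member 999 circRNAs were compared over the 24 libraries. These include the libraries whose falls chose the members, so a shared fall is built into the likeness and nothing is read from it. For SLC45A4 they were circRNA_38090 of EZH2, the histone H3 lysine methyltransferase of Polycomb (r = 0.862), circRNA_14373 of KIF11, a kinesin of the mitotic spindle (0.860), and circRNA_02640 of DENND4A, an exchange factor of Rab proteins (0.813). The KIF11 circRNA had a 1d mean of 12.8 normalized counts, a 7d mean of 24.1, a 21d mean of 10.8 and a 180d mean of 2.78, and was highest at 7d like SLC45A4. Its 35d mean was 5.52 and its 120d mean 3.74, so it passed the minimum of 10 through the stages up to 28d. For TMX1 they were circRNA_23675 of NPRL3, a subunit of the GATOR1 complex that restrains mTORC1 (0.856), followed by those of DENND4A (0.836) and EZH2 (0.829). The NPRL3 circRNA had a 1d mean of 23.7, a 7d mean of 68.6 and a 180d mean of 5.11.

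BTBD7 had other neighbours. They were circRNA_20222 of the RNA polymerase II kinase gene CDK13 (r = 0.830), circRNA_31822 of ZZZ3, a subunit of a histone acetyltransferase complex (0.814), and circRNA_34885 of APBB2, an adaptor that binds the amyloid precursor protein (0.776). CDK13 had a Spearman correlation of 0.672 with BTBD7. The ZZZ3 circRNA had a 1d mean of 64.1, a 7d mean of 49.5, a 21d mean of 37.3 and a 180d mean of 15.8. None of these 3 was among the nearest of SLC45A4 or TMX1, which had EZH2 and DENND4A in common.

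Host genes related to the 3 members were described as lists, at 180d against 1d, where 3.4% of all circRNAs were called lower and 5.9% higher. With 10 to 14 circRNAs a list, 0 calls in a direction is near that background. Of 32 other thioredoxin and disulfide genes of the endoplasmic reticulum or cytosol, 8 hosted 14 circRNAs, of which 0 were called lower and 0 higher at 180d against 1d. Their median log2 fold change was 0.04, against 0.20 over all circRNAs, and 6 of 14 were negative. The lowest was circRNA_01397 of the thioredoxin-like gene TXNL1, with 1.96 ± 1.70 normalized counts at 180d and 8.25 ± 2.29 at 1d (log2 fold change -1.92, not called). The highest was circRNA_02994 of TXNDC16, with 3.28 ± 0.442 at 180d and listed at 0 in the 3 libraries of 1d (not called). A listed 0 may stand for 1 read, so this is no evidence of absence at 1d.

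Of 35 other genes of sugar or polyamine transport and metabolism, 5 hosted 10 circRNAs, of which 2 were called higher and 0 lower at 180d, where 5.9% of all circRNAs were called higher. Their median was -0.18. Highest was circRNA_04958 of SLC35D2, a nucleotide sugar transporter, with 11.7 ± 1.22 at 180d and 1.33 ± 2.30 at 1d. The lowest was circRNA_19516 of SLC37A3, a transporter related to sugar phosphate carriers, with 1.46 ± 1.27 at 180d and 6.90 ± 2.07 at 1d (not called). No other SLC45 gene hosted a circRNA of the table.

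Of 59 other BTB domain and CUL3 genes, 8 hosted 11 circRNAs, of which 0 were called in either direction at 180d (3.4% lower and 5.9% higher over all), with a median of -0.21. At 21d against 7d 1 of the 11 was called higher (0.6% of all circRNAs) and their median was 0.70, against 0.20 over all. The lowest at 180d was circRNA_09436 of KLHL18, an adaptor of CUL3 ubiquitin ligases, with 1.47 ± 1.27 at 180d and 4.50 ± 3.98 at 1d (not called). The highest was circRNA_16905 of CUL3 itself, with 4.22 ± 1.95 at 180d and listed at 0 in the 3 libraries of 1d, where a 0 may stand for 1 read (not called).

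Some circRNAs of host genes that mark cell types differed between 180d and 1d, and others were not called. Of 19 erythroid genes, EPB41, TFRC and BCL11A hosted 9 circRNAs, while SLC4A1, ANK1, GATA1 and KLF1 had none in the table. The summed level of the 9 was 45.9 to 62.2 normalized counts at 180d and 115 to 149 at 1d, and it was 137 to 183 at 7d, the highest stage. Called lower at 180d were 4 of the 9, against 3.4% of all circRNAs. The lowest was circRNA_11324 of the transferrin receptor gene TFRC, with 2.0 ± 3.46 at 180d and 27.9 ± 9.22 at 1d. The highest was circRNA_30907 of EPB41, a protein of the red cell membrane skeleton, with 27.2 ± 4.94 at 180d and 19.7 ± 6.16 at 1d (not called).

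Of 21 B and plasma cell genes, AFF3, BANK1, CD22 and RALGPS2 hosted 7 circRNAs, 3 of them called higher at 180d (5.9% of all circRNAs), with a summed level of 90.0 to 130 at 180d and 32.9 to 48.2 at 1d. They ran from circRNA_23946 of AFF3, with 0.958 ± 1.66 at 180d and 4.09 ± 1.63 at 1d (not called), to circRNA_36034 of the B cell adaptor gene BANK1, with 17.6 ± 11.5 at 180d and 1.00 ± 1.74 at 1d. Of 14 macrophage genes 2 hosted 2 circRNAs (54.4 to 94.9 at 180d, 11.9 to 24.1 at 1d), of which that of CTSS was called higher and that of ADGRE1 was not called. T and NK cell genes and stromal genes had 1 circRNA each, of TOX (11.2 to 26.7 at 180d, 13.6 to 17.9 at 1d) and FLT1 (0 to 3.0 at 180d, 3.01 to 11.5 at 1d), neither of them called. Most defining markers of the spleen had no circRNA in the table, so the tissue label could not be checked from them. The part of changing cell types in the falls of BTBD7, SLC45A4 and TMX1 was not tested.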

How the data were processed

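Per the study's methods, the authors removed ribosomal RNA from spleen RNA, digested linear RNA with RNase R, used BWA for alignment to Sscrofa11.1 and CIRI2 for circRNA detection. The labels name other kits and no RNase R step, and whether that step was used changes what a value per clean read means. FastQC, cutadapt and TopHat2 are also named in the submitters' processing notes. The deposited values are unnormalized counts of back-splice reads for 3000 circRNAs in 24 libraries. The rule that chose the 3000 is not given in the sources used here, and 8.72% of the counts are 0. Table totals are not the depth, so the clean reads the study lists were an alternative depth.

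Counts were fitted with edgeR 4.0.16 (limma 3.58.1, R 4.3.3; TMM, estimateDisp, robust glmQLFit, glmQLFTest) over all 24 libraries with a coefficient per stage, no covariate and no filter. The fit was tested on simulated data. The biological coefficient of variation was 0.300, so p-values reflect the spread between pigs. DESeq2 1.42.0, other scalings, filterByExpr, a replicate block, libraries with at least 0.96 valid bases and leaving out each replicate were alternatives. A normalized count is the count over the effective library size, times the geometric mean of these sizes. Host genes, exons and sequences came from RefSeq Sscrofa11.1, the authors' build; 2848 of 3000 circRNAs had a host gene. Intervals of read ratios were exact binomial (scipy 1.17.1) and cover counting error only. Figures used matplotlib 3.10.9.

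The members, gene lists and tests were chosen with earlier results of these data known. Named were the 3 members, the 3 circRNAs of other genes with the highest Pearson r to each, and the lowest and highest circRNA of each list at 180d against 1d; PICALM was named after its value was seen.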

Additional observations from a re-analysis of the deposited data

How the results depend on the processing

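The number of circRNAs called at 14d against 7d was 0, and became 1 with DESeq2 size factors or table totals, 21 with clean reads as depth, 17 with DESeq2's Wald test, 2 among libraries of at least 0.96 valid bases and 0 to 5 without 1 replicate. At 21d against 7d it was 20, and became 4 with DESeq2 size factors or table totals, 538 with clean reads, 15 with DESeq2's Wald test, 6 with filterByExpr, 2 among libraries of at least 0.96 and 1 to 29 without 1 replicate. At 21d against 14d it was 0 under every alternative run. The near-zero change of SLC45A4 at 21d against 14d turned negative with DESeq2 size factors (-0.0339), table totals (-0.0573), DESeq2 (-0.0390), filterByExpr (-0.0127), libraries of at least 0.96 (-0.36) and without 1 replicate (-0.45 to 0.43). That of TMX1 ran from -0.42 to 0.90 without 1 replicate. The causes were not tested.

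With the replicate number as a block, 21 circRNAs were called at 21d against 7d and SLC45A4 kept its call (log2 fold change -1.92, adjusted p = 0.0305 from edgeR). Same-numbered libraries did not deviate together on average (mean correlation 0.006 over 84 pairs, and -0.003 over 168 pairs of different number). No pairing by number was detected, which with 3 libraries a stage cannot exclude one. Over all 13 alternatives the adjusted p of SLC45A4 at 21d against 7d ran from 0.00695 to 0.162 and its log2 fold change from -2.28 to -1.04. Against 1d, each fall at 28d, 35d, 120d and 180d stayed negative under all alternatives. Over all contrasts with 1d, from 7d on, 256 of 273 alternative values moved by less than the spread between replicates. Those that moved more included, with clean reads as depth, the 35d and 120d values of each member and the 180d values of BTBD7 and TMX1. The 180d values of SLC45A4 and BTBD7 ran to -7.78 and -7.81 without the 1 library that held their reads. These are fitted values against libraries at 0 and are no bounds. Many late libraries held single-digit counts of these circRNAs, which limits the precision of their values.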
